A study of Homo sapiens with 16 samples.

Results

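Ribosome biogenesis genes encode the nucleolar machinery that makes ribosomes, and 40 of them were listed by symbol. The listing rule used no measured value, but the list was drawn up with earlier results of these data known. A gene was taken from the probe set that carried its symbol alone, and where several did, from the brightest over all arrays. By this rule 36 of the 40 had a value, among the 18417 genes that could be assigned in this way, and all 36 passed the filter on dim genes, as 12639 genes did. NOP56 and PPAN lay only on probe sets with several symbols, GNL3 and DDX18 had no entry in the platform table, and none of these 4 was analysed here.

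RNA came from 4 human cell lines, all of which the labels give as derived from multiple myeloma (a plasma cell cancer). Of these, IM-9 is widely described as a B lymphoblastoid line transformed by Epstein-Barr virus. There were 8 groups of 2 arrays: parental IM-9, U266, KMS-11 and RPMI8226 held at 20% oxygen, and their hypoxia-resistant (HR) counterparts RPMI8226-HR, KMS-11-HR, U266-HR and IM-9-HR held at 1% oxygen, each for 24 hours. Resistance and oxygen at harvest cannot be told apart, since HR cells were measured only at 1% and parental cells only at 20%. The labels do not say how the HR cells were derived or whether a group's 2 arrays stand for separate cultures, so p-values within lines measure only the spread between these arrays, which may be technical. Values are log2 array intensities, in which a difference of 1 is a doubling, and differences are HR minus parental throughout. They compare a gene only with itself, since probe sets differ in brightness.

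RNA polymerase I transcribes one long precursor of the ribosomal RNAs in the nucleolus. Small nucleolar ribonucleoproteins (snoRNPs) modify it, the small subunit processome and RNase MRP take part in cutting it, and separate sets of factors then build the 40S and 60S subunits. Many of these genes are textbook targets of MYC, which with its partner MAX binds the E-box CACGTG. Myeloma cells, which secrete large amounts of immunoglobulin, depend on a high capacity for protein synthesis.

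The arrays were even enough to compare: their medians lay between 6.22 and 6.34, and arrays of a group correlated at r = 0.992 to 0.996 over all probe sets. The 8 plasma cell markers averaged 8.86 to 9.58 in the 8 groups, but CD38 was high in RPMI8226 alone (9.02 parental and 10.54 HR, against 4.94 to 5.96 elsewhere), and SLAMF7 was low in RPMI8226 and KMS-11 (4.71 to 5.73). B cell markers averaged 5.45 to 7.13 outside IM-9, although MS4A1 was high in RPMI8226 (9.50 parental and 10.19 HR). In IM-9, the line with most falls among the members, the mean of these markers went from 9.44 to 9.05. There 2 of 4 were called lower, CD22 (10.41 to 9.11) and CIITA (7.54 to 7.19). MS4A1 (11.33 to 11.41) and PAX5 (8.48 to 8.49) did not fall in IM-9. HBB, the only erythroid marker measured, was called higher in U266-HR (5.90 to 6.99) and lower in RPMI8226-HR (5.38 to 5.12). Of its group means, only that of U266-HR lay above the level of the filter on dim genes. The call in RPMI8226 thus compares dim values, and whether HBB was expressed there was not judged. The part of these markers in the members' differences was not tested. Myeloid markers passed in 0 of 5 cases, and T and NK cell markers and stromal markers in 2 of 5 each, with list means of 4.87 to 5.69. Of 7 measured genes of the low oxygen response, 7 rose in RPMI8226-HR and U266-HR and 6 in KMS-11-HR and IM-9-HR.

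The E-box was looked for in the RefSeq promoter windows (GRCh38.p14, 250 bases before to 50 after each gene's start), because MYC itself moved in some lines. CACGTG reads the same on both strands. It stood in 9 of the 28 tested members that had a window, which is 32.1%, against 10.2% of 10057 windows of tested genes. The 7 of these genes that fell in IM-9-HR are shown here with the E-box in capitals, read 5′ to 3′ along the gene's strand. They are RRP9 at chr3:51941892-51941921 on the minus strand, NOP14 at chr4:2963374-2963403 on the minus strand, BYSL at chr6:41921515-41921544 on the plus strand, NOP2 at chr12:6568242-6568268 on the minus strand, UTP20 at chr12:101280083-101280112 on the plus strand, MYBBP1A at chr17:4555340-4555369 on the minus strand and FBL at chr19:39846356-39846385 on the minus strand.
RRP9: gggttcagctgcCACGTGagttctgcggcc
NOP14: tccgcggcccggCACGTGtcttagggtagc
BYSL: ttcttcagtcccCACGTGcgatccttcccg
NOP2: aggtccggattgCACGTGgagggccgc
UTP20: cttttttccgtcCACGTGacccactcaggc
MYBBP1A: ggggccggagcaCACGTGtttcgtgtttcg
FBL: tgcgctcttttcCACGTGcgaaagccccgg
The E-box lay close to the annotated start in all 7, between 10 bases before it (UTP20, at -10) and 35 bases after it (NOP2). A match is a description of letters and not a bound site. The 2 other members with an E-box, WDR43 and PES1, were not called in any line. Members with the E-box fell in IM-9-HR in 7 of 9 cases and in KMS-11-HR in 2 of 9, and members with a window that lacks it in 13 of 19 and 6 of 19. Their median differences were -0.32 with and -0.31 without the E-box in IM-9, and -0.21 and -0.19 in KMS-11.

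HR and parental cells were compared within each line, to ask which of these genes differed. In IM-9-HR, 26 of the 36 members fell and 0 rose, at an adjusted p under 0.05 from limma, where 21.3% of all tested genes were called lower and 14.4% higher. In KMS-11-HR, 11 fell and 0 rose, against 5.83% and 2.44% of all genes. In RPMI8226-HR, 2 fell and 0 rose, against 15.3% and 10.7%. In U266-HR, 0 fell and 1 rose, against 8.42% and 9.68%.

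The size of the shifts was modest. The median difference of the members was -0.34 in IM-9, -0.21 in KMS-11, -0.05 in RPMI8226 and -0.05 in U266, where all genes had medians of -0.06, -0.02, -0.01 and -0.01. Genes as bright as the members had medians of -0.06, -0.04, -0.03 and -0.01 in the same order, and 25.7%, 7.50%, 18.0% and 9.12% of them were called lower. By the probe sets used, all 36 members lay below 0 in KMS-11, and the HR and parental arrays did not overlap for 35 of them (59.1% of all genes). In IM-9, 35 of 36 lay below 0 and 32 did not overlap (65.1% of all genes). In RPMI8226 and U266, 22 and 23 lay below 0, and 20 and 23 did not overlap (57.7% and 62% of all genes). Of all genes, 54.4% lay below 0 in KMS-11, 60.1% in IM-9, 53.1% in RPMI8226 and 52.8% in U266.

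**Figure D1:**
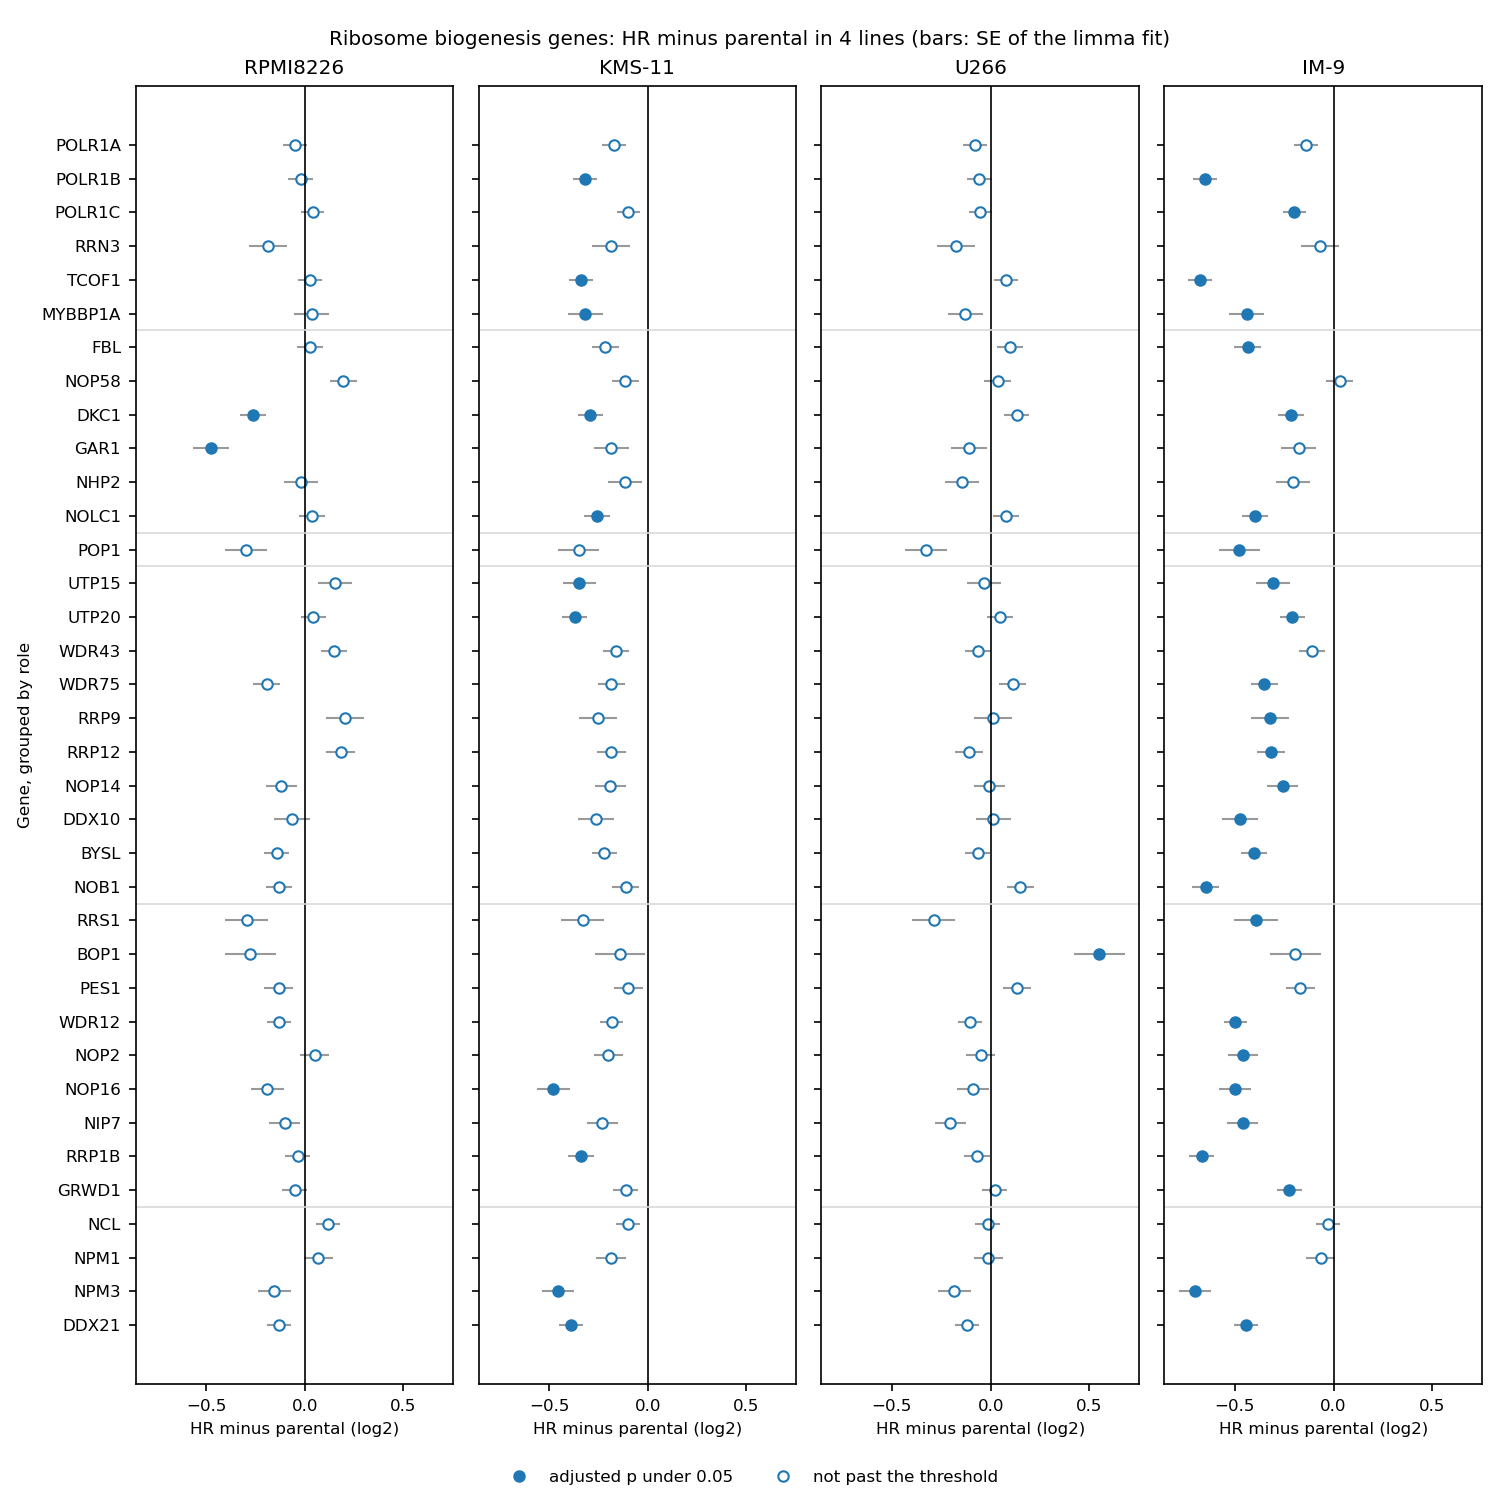
HR minus parental difference (log2, x axis) of each of the 36 ribosome biogenesis genes (y axis, grouped by role) in 4 lines, with bars for the standard error of the limma fit; filled points passed an adjusted p of 0.05. The 26 filled points of IM-9 and the 11 of KMS-11 all lie left of 0, while RPMI8226 has 2 filled points and U266 only BOP1, to the right.

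**Figure D2:**
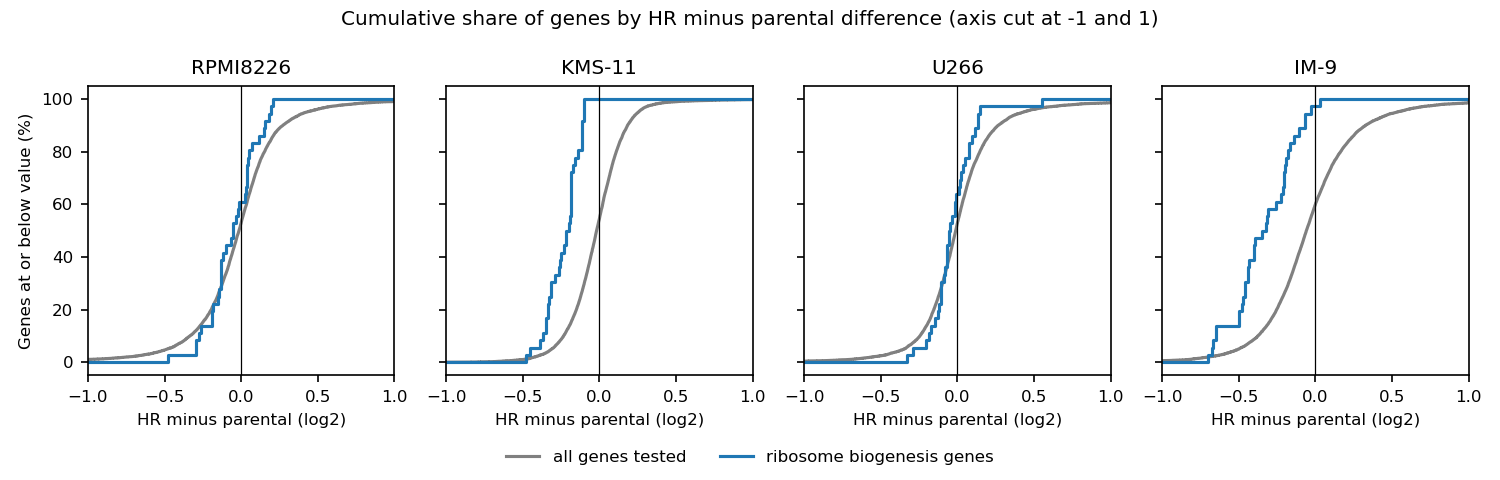
Cumulative share of genes (%, y axis) at or below each HR minus parental difference (log2, x axis) for the 36 ribosome biogenesis genes and for all 12639 genes tested. The curve of the members lies to the left of all genes in KMS-11 (median -0.21 against -0.02) and IM-9 (-0.34 against -0.06), and close to it near 0 in RPMI8226 and U266.

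Calls in KMS-11 depended on each array. The 11 members that fell there became 7 or 3 without the first or the second parental array, and 3 or 7 without the first or the second HR array. The calls over all genes, 1045, became 395, 380, 401 and 348. UTP20, NOP16 and DDX21 kept their call in KMS-11 under all 25 alternative settings that were tried for it, these 4 included.

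Among genes of RNA polymerase I transcription, 4 of 6 fell in IM-9-HR and 3 of 6 in KMS-11-HR, with median differences of -0.32 and -0.25. TCOF1, which encodes the nucleolar factor treacle that supports polymerase I transcription, read 8.82 and 8.90 in parental IM-9 and 8.18 and 8.19 in IM-9-HR. In KMS-11 it read 8.48 and 8.56 in parental and 8.17 and 8.20 in HR cells, while in RPMI8226 it read 8.22 and 8.26 against 8.23 and 8.31, and in U266 7.90 and 7.98 against 8.01 and 8.03. Both HR arrays thus lay under both parental arrays in IM-9 and KMS-11, and in neither of the others. TCOF1 fell by 0.67 ± 0.06 on the log2 scale (SE, n = 2 arrays per group) in IM-9-HR (limma, adjusted p = 3.64e-06) and by 0.34 ± 0.06 in KMS-11-HR (adjusted p = 0.005).

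POLR1B, the second largest subunit of the polymerase, read 9.31 and 9.38 in parental IM-9 and 8.68 and 8.70 in IM-9-HR, and 8.96 and 9.01 against 8.65 and 8.69 in KMS-11. The groups were apart in both lines. The fall was 0.65 in IM-9 (change -0.65 ± 0.06, adjusted p = 5.8e-06) and 0.32 in KMS-11 (-0.32 ± 0.06, adjusted p = 0.00786). In RPMI8226 its arrays overlapped, at 9.65 and 9.74 against 9.63 and 9.72, as they did in U266, at 9.13 and 9.06 against 9.01 and 9.07. MYBBP1A, a nucleolar protein that binds MYB, followed the same order of lines with differences of -0.44 in IM-9 and -0.32 in KMS-11, both called, and 0.03 and -0.13 in RPMI8226 and U266, not called. Its call in KMS-11 (adjusted p = 0.0444) was lost under 14 of 25 alternatives. POLR1C, a subunit shared with polymerase III, fell in IM-9 only among the within-line tests (-0.20 ± 0.06, adjusted p = 0.0173). That call was lost under 4 of 25 alternatives. The largest subunit POLR1A and the initiation factor RRN3 passed in no line, with differences of -0.05 to -0.17 and -0.07 to -0.19.

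Of 6 snoRNP genes tested, 3 fell in IM-9-HR, 2 in KMS-11-HR and 2 in RPMI8226-HR. DKC1, the pseudouridine synthase dyskerin, read 10.09 and 10.21 in parental RPMI8226 against 9.89 and 9.88 in HR cells, 10.25 and 10.28 against 9.93 and 10.02 in KMS-11, and 9.75 and 9.86 against 9.59 and 9.59 in IM-9. In U266 the HR arrays were the higher, at 10.33 and 10.27 against 10.20 and 10.14. It fell in these 3 lines, with changes of -0.26, -0.29 and -0.21 (SE 0.06 each; limma adjusted p = 0.00907, 0.0152 and 0.0203), and its 0.13 in U266 did not pass (adjusted p = 0.192). DKC1 was the only member called lower in 3 lines, as 1.51% of all genes were, and 0 members were called lower in 4 (0.0791% of all genes). With the 4 arrays of each line fitted alone, DKC1 passed in KMS-11 (limma adjusted p = 0.0448) but not in RPMI8226 (0.0838) or IM-9 (0.1015). The call in the reported fit also rested on single arrays in each of these lines. It was lost in RPMI8226 without the second parental array (adjusted p = 0.0772), in KMS-11 without either parental array or the first HR array (0.0782 to 0.137), and in IM-9 without the second parental array or either HR array (0.0801 to 0.119), which leaves DKC1 called lower in 2 lines.

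GAR1 encodes a partner of dyskerin in the same H/ACA particle. Its arrays read 8.05 and 8.09 in parental RPMI8226 and 7.56 and 7.63 in RPMI8226-HR, a clear separation, and the difference of -0.48 ± 0.09 was the largest of any member in that line (adjusted p = 0.00176). In KMS-11 it read 8.46 and 8.46 against 8.26 and 8.29, in U266 8.09 and 8.11 against 8.07 and 7.91, and in IM-9 8.63 and 8.30 against 8.30 and 8.28. None of these 3 differences passed, at -0.18, -0.11 and -0.18. NHP2, of the same particle, passed in no line, with -0.20, -0.14, -0.11 and -0.02 in IM-9, U266, KMS-11 and RPMI8226. A second, slightly dimmer probe set of NHP2 gave -0.29, -0.07, 0.06 and -0.004 in the same order, so the signs disagreed in KMS-11.

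The C/D box particles guide methylation. FBL, the methyltransferase fibrillarin, read 10.59 and 10.65 in parental IM-9 and 10.20 and 10.17 in IM-9-HR, a fall of 0.44 (change -0.44 ± 0.07, adjusted p = 0.00028). Its -0.21 ± 0.07 in KMS-11 did not pass (adjusted p = 0.0705). NOP58, a scaffold of the same particle, was the single member above 0 in IM-9, at 0.03 ± 0.07, and it was at 0.20, -0.11 and 0.04 in RPMI8226, KMS-11 and U266, with no call. NOLC1, a snoRNP assembly chaperone, fell in IM-9 (-0.40 ± 0.07, adjusted p = 0.000444) and in KMS-11 (-0.26 ± 0.07, adjusted p = 0.0299).

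In the small subunit group 9 of 10 genes fell in IM-9, with a median difference of -0.32, against 2 of 10 in KMS-11 and 0 of 10 in RPMI8226 and U266. NOB1, the endonuclease that makes the last cut at the 3′ end of 18S RNA, read 10.08 and 10.13 in parental IM-9 and 9.39 and 9.52 in IM-9-HR. In KMS-11 it read 10.42 and 10.40 against 10.27 and 10.33, in RPMI8226 10.76 and 10.84 against 10.61 and 10.73, and in U266 9.27 and 9.22 against 9.38 and 9.41. The HR arrays were thus lower in 3 lines and higher in U266. Only the IM-9 difference passed, at -0.65 ± 0.07 (adjusted p = 1.17e-05); the others were -0.11, -0.13 and 0.15.

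UTP20, a large scaffold of the processome, was the member of this group with the clearest change in KMS-11. It read 9.38 and 9.39 in parental and 9.02 and 8.9997 in HR cells there, and 9.43 and 9.52 against 9.25 and 9.28 in IM-9. The falls were 0.37 and 0.21 (changes -0.37 ± 0.07, adjusted p = 0.00426, and -0.21 ± 0.07, adjusted p = 0.0244). Its arrays overlapped in RPMI8226 (9.07 and 9.01 against 9.17 and 9.003), and in U266 the HR arrays were slightly the higher (9.03 and 8.97 against 9.06 and 9.03), without a call in either. UTP15, which acts with the polymerase early in processome assembly, fell in KMS-11 and IM-9 as well, with changes of -0.35 and -0.31. The remaining falls in IM-9 were those of the helicase DDX10 (-0.47), the 40S assembly factor BYSL (-0.40), WDR75 (-0.35), the U3 snoRNP protein RRP9 (-0.32), the export factor RRP12 (-0.32) and NOP14 (-0.26). WDR43 was the exception, at -0.11 (adjusted p = 0.227). The IM-9 calls of UTP15, UTP20 and NOP14 were each lost under 4 of 25 alternatives, and that of RRP9 under 3.

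POP1, the largest protein of RNase MRP and RNase P, and RRS1, which helps to bring the 5S particle into the 60S precursor, had differences below 0 in every line. POP1 read 8.42 and 8.47 in parental IM-9 against 7.91 and 8.02 in HR cells, 8.95 and 8.93 against 8.60 and 8.58 in KMS-11, 7.48 and 7.41 against 7.36 and 6.94 in RPMI8226, and 7.61 and 7.47 against 7.19 and 7.23 in U266. In each line both HR arrays lay below both parental arrays. The difference passed in IM-9 (-0.48 ± 0.11, adjusted p = 0.00375) and came near the threshold in the others, at -0.30, -0.35 and -0.33 in RPMI8226, KMS-11 and U266 (adjusted p = 0.0555, 0.0623 and 0.05004).

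RRS1 read 7.83 and 7.75 against 7.39 and 7.41 in IM-9, 8.74 and 8.67 against 8.40 and 8.34 in KMS-11, and 8.52 and 8.26 against 8.13 and 8.07 in U266. In RPMI8226 it read 8.90 and 8.61 against 8.33 and 8.60, so that here too no HR array reached a parental one. Its differences were -0.39, -0.33, -0.29 and -0.29, of which only that of IM-9 passed (adjusted p = 0.0138). The test of a difference in effect between lines gave adjusted p = 0.702 for POP1 and 0.913 for RRS1, which does not show that the effects were equal.

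Of 9 tested large subunit genes, 7 fell in IM-9-HR with a group median of -0.46, and 2 in KMS-11-HR. RRP1B, a nucleolar protein of the early 60S precursor, read 9.57 and 9.67 in parental IM-9 and 8.95 and 8.94 in IM-9-HR, and 9.98 and 9.97 against 9.64 and 9.63 in KMS-11. Its falls were among the largest in both lines, with changes of -0.67 ± 0.07 (adjusted p = 6.57e-06) and -0.34 ± 0.07 (adjusted p = 0.00719). In RPMI8226 it read 9.85 and 9.91 against 9.92 and 9.77, and in U266 8.69 and 8.72 against 8.66 and 8.61, with differences of -0.04 and -0.07 that did not pass.

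NOP16, another 60S assembly factor, read 9.22 and 9.49 in parental IM-9 and 8.90 and 8.81 in HR cells, and 8.83 and 8.91 against 8.36 and 8.42 in KMS-11. The change was close to equal in these lines, -0.50 ± 0.08 (adjusted p = 0.000462) and -0.48 ± 0.08 (adjusted p = 0.00388). It was -0.19 in RPMI8226 (8.35 and 8.34 against 8.21 and 8.10) and -0.09 in U266 (8.92 and 8.90 against 8.79 and 8.86), neither of which passed.

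The proteins BOP1, PES1 and WDR12 form the PeBoW complex, which is needed to process the 60S RNA. In IM-9 both HR arrays lay below both parental arrays for all 3 genes, and WDR12 alone passed. WDR12 read 10.00 and 10.01 in parental IM-9 and 9.53 and 9.49 in IM-9-HR, a change of -0.50 ± 0.06 (adjusted p = 3.86e-05). Its differences in KMS-11, RPMI8226 and U266 were -0.18, -0.13 and -0.10, from arrays at 10.03 and 9.97 against 9.79 and 9.84, 9.74 and 9.74 against 9.66 and 9.56, and 9.77 and 9.76 against 9.70 and 9.62. The HR arrays were the lower in all of these, without passing the test. PES1 passed in no line, at -0.17, 0.13, -0.10 and -0.13 in IM-9, U266, KMS-11 and RPMI8226.

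BOP1 was the only member that rose in any line. It read 6.46 and 6.48 in parental U266 and 7.25 and 6.78 in U266-HR, a difference of 0.55 ± 0.13 (adjusted p = 0.00931). The HR arrays stood far apart from each other, and the call was lost without the first HR array (0.32, adjusted p = 0.108) and without the first parental array (0.54, adjusted p = 0.0563). A second probe set of BOP1 gave -0.04 in U266, so the probe sets disagreed there. In RPMI8226, KMS-11 and IM-9 the second probe set gave -0.29, -0.10 and -0.37. The probe set used read 9.35 and 9.33 against 9.06 and 9.07 in RPMI8226. It read 8.18 and 8.52 against 8.26 and 8.15 in KMS-11, and 8.14 and 8.24 against 7.98 and 8.01 in IM-9. Those differences, -0.28, -0.14 and -0.19, did not pass.

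The other large subunit genes that fell in IM-9 were the RNA methyltransferase gene NOP2 (-0.46), NIP7 (-0.46) and the histone-binding chaperone gene GRWD1 (-0.22), with RRS1 as given above. The IM-9 calls of GRWD1 and RRS1 were each lost under 3 of 25 alternatives.

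The nucleolar chaperones and multifunctional factors held both the largest fall and some of the smallest differences. NPM3, a relative of nucleophosmin, read 8.10 and 8.18 in parental IM-9 and 7.43 and 7.45 in IM-9-HR. The change of -0.70 ± 0.08 (adjusted p = 3.43e-05), a ratio of 0.615, was the largest of any member in any line. In KMS-11 it read 7.88 and 7.997 against 7.36 and 7.61, a change of -0.45 ± 0.08 (adjusted p = 0.00509). In RPMI8226 the arrays read 8.44 and 8.45 against 8.30 and 8.28, and in U266 6.87 and 7.03 against 6.77 and 6.76. The groups were apart here too, but the differences of -0.15 and -0.18 did not pass.

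DDX21, an RNA helicase of the nucleolus, read 11.04 and 11.02 in parental IM-9 and 10.59 and 10.59 in HR cells, and 10.82 and 10.81 against 10.39 and 10.47 in KMS-11. It fell by 0.44 ± 0.06 (adjusted p = 0.000119) and 0.39 ± 0.06 (adjusted p = 0.00231), the latter with the smallest p of any member in KMS-11. Its differences were -0.13 in RPMI8226 (9.78 and 9.72 against 9.67 and 9.57) and -0.12 in U266 (10.78 and 10.70 against 10.64 and 10.60). NCL (nucleolin) and NPM1 (nucleophosmin), abundant proteins of the nucleolus, passed in no line. NCL lay at -0.03, -0.02, -0.10 and 0.12 in IM-9, U266, KMS-11 and RPMI8226, and NPM1 at -0.07, -0.01, -0.19 and 0.07.

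**Figure D3:**
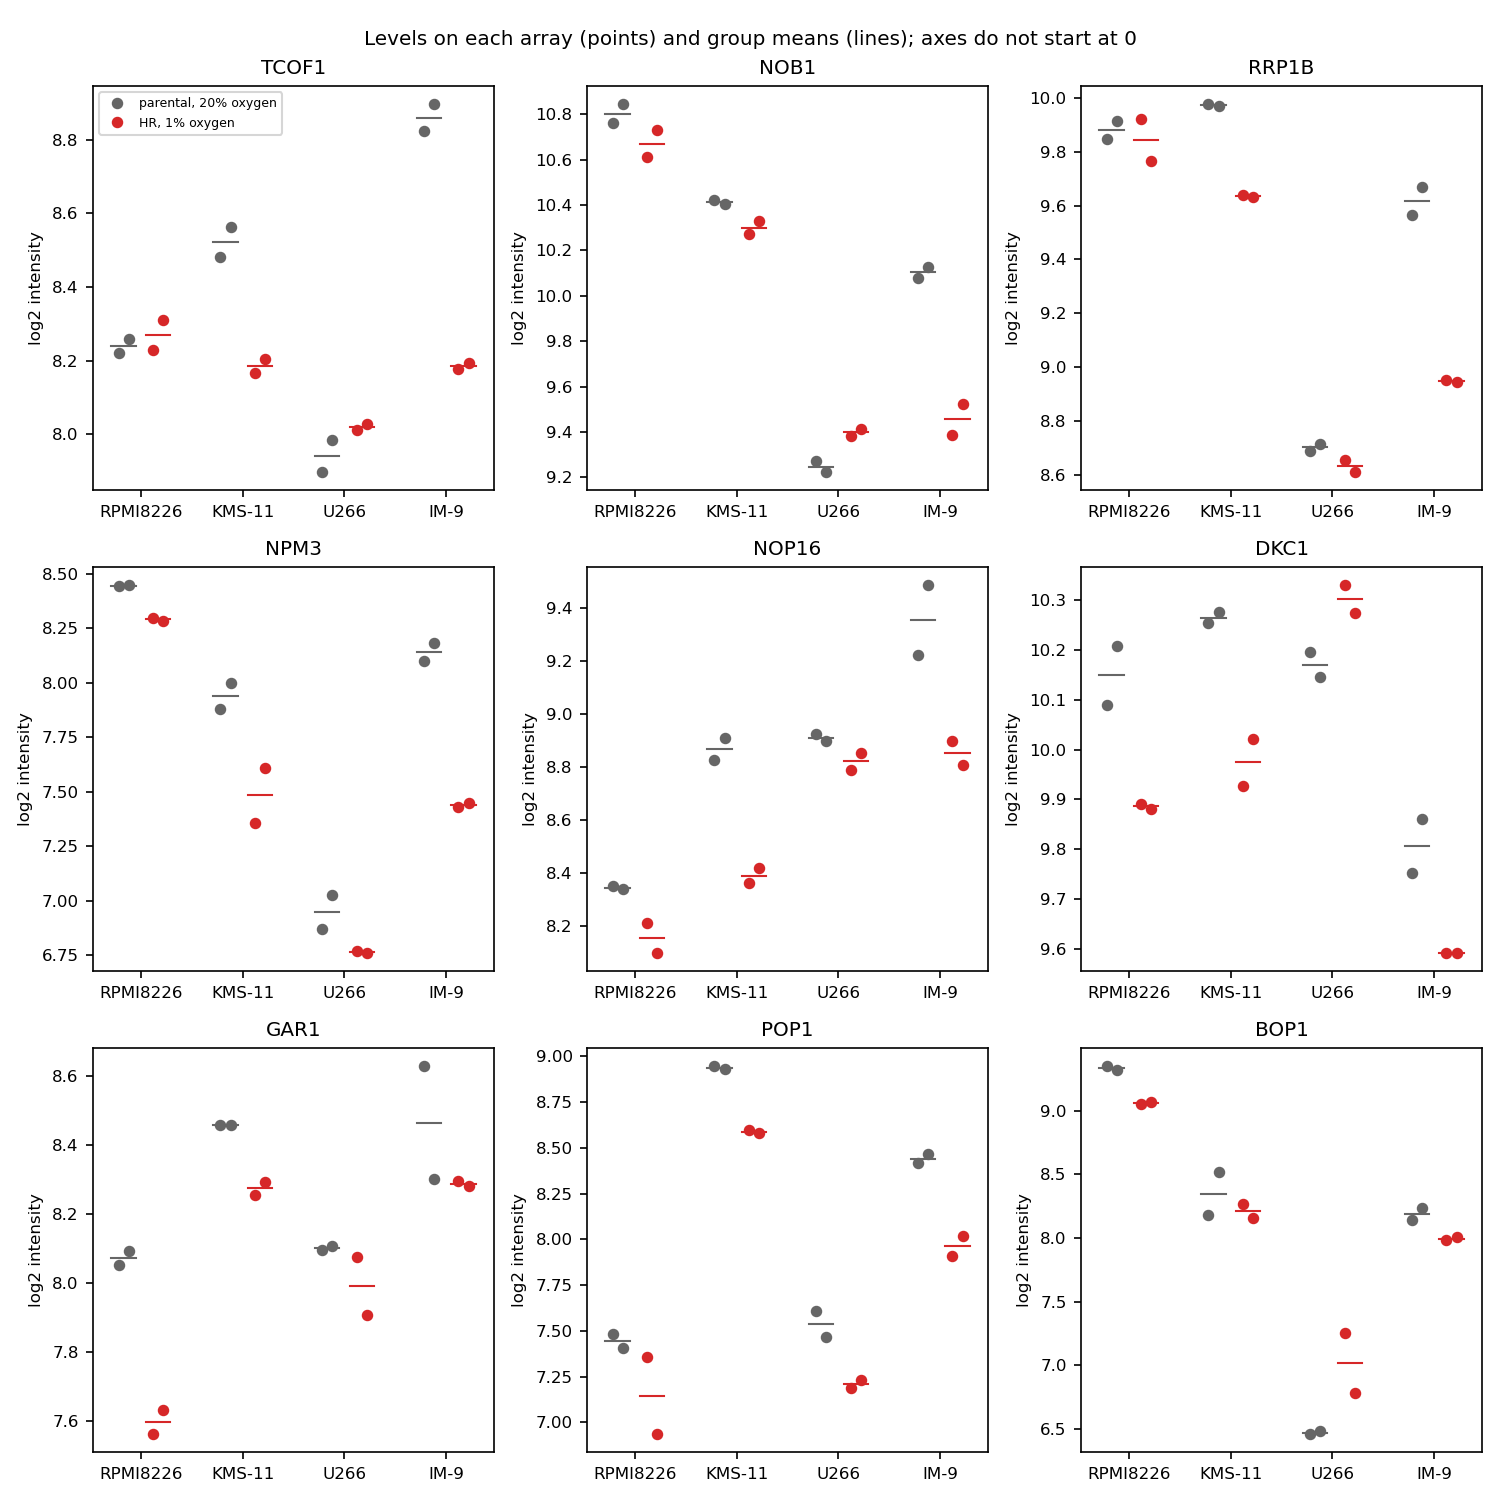
Log2 intensity (y axis, not from 0) of 9 ribosome biogenesis genes on each of the 16 arrays (points), by line (x axis), with group means as lines; grey is parental at 20% oxygen and red is HR at 1% oxygen. TCOF1 is lower on both HR arrays in KMS-11 and IM-9 alone, NPM3, NOP16 and POP1 in all 4 lines, GAR1 is separated most in RPMI8226, and the HR arrays of BOP1 are higher in U266 (7.25 and 6.78 against 6.46 and 6.48).

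Of the 11 members that fell in KMS-11-HR, 11 also fell in IM-9-HR, which is 100% of the first list and 42.3% of the 26 of the second. Over all tested genes, 387 were called lower in both lines, which is 52.5% of the 737 of KMS-11 and 14.4% of the 2692 of IM-9. Members called lower in at least 2 lines numbered 11, against 9.83% of all genes, and members called higher in at least 2 or at least 3 lines numbered 0, against 6.32% and 1.18%. In at least 1 line 28 members were called, against 58% of all genes. The 8 members called in no line were POLR1A, RRN3, NOP58, NHP2, WDR43, PES1, NCL and NPM1.

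An F test in limma over the 4 lines asked whether the HR effect differed between them. It passed for 21 of 36 members, against 45.4% of all genes. The smallest adjusted p-values were those of TCOF1 (5.27e-05), NOB1 (0.000174), POLR1B (0.00028), RRP1B (0.000376), FBL (0.00191) and NOLC1 (0.00229). For the first 4 of these the differences lay between -0.13 and 0.15 in RPMI8226 and U266 and between -0.65 and -0.67 in IM-9. FBL and NOLC1 had positive but uncalled differences in RPMI8226 and U266. Without IM-9, 12 members passed, in a fit with fewer arrays and lines. The share of all genes that passed in that fit is not given here, and the part of IM-9 itself in the lower count was not tested. The difference was the lowest of the 4 lines in IM-9 for 25 of 36 members, and for 35% of all genes.

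Across the 4 lines, with the line as the unit (n = 4), 0 of 36 members passed in either direction, as 0% of all genes did. At an unadjusted p under 0.05, 9 members were lower and 0 higher, against 4% and 2.28% of all genes. The median of the members was -0.15, and -0.02 for all genes, and 35 of 36 lay below 0. The 4 smallest p-values were those of POP1 (-0.36 ± 0.07, SE, unadjusted p = 0.00192 by limma, adjusted p = 0.693), RRS1 (-0.33 ± 0.07, unadjusted p = 0.00251, adjusted p = 0.758), NPM3 (-0.37 ± 0.11, unadjusted p = 0.0149, adjusted p = 0.764) and NOP16 (-0.31 ± 0.10, unadjusted p = 0.0173, adjusted p = 0.764). NOP58 was the single member above 0, at 0.04 ± 0.08 (adjusted p = 0.932). In all 4 lines 15 members lay below 0, against 11% of all genes, and 0 above 0, against 5.48%.

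Parental levels differed between lines for 36 of 36 members, as they did for 94.3% of all genes (F test in limma). U266 had the lowest parental mean for 20 of 36 members, and for 30.2% of all genes, and the highest for 1 of 36. The widest range between parental means was that of BOP1, 2.87, from 6.47 in U266 to 9.34 in RPMI8226, with 8.35 in KMS-11 and 8.19 in IM-9. NOB1 (9.25 in U266, 10.10 in IM-9, 10.41 in KMS-11 and 10.80 in RPMI8226) and NPM3 (6.95 in U266, 7.94 in KMS-11, 8.14 in IM-9 and 8.44 in RPMI8226) had the same extremes, with ranges of 1.56 and 1.496. For POP1 the range was 1.49, with low means in RPMI8226 (7.44) and U266 (7.54), which overlapped in their arrays, and high ones in IM-9 (8.44) and KMS-11 (8.94).

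RRS1, POP1 and BOP1 lie on chromosome 8, and 156 of its 447 tested genes, 34.9%, were called lower in RPMI8226-HR, with a median of -0.15. The differences of the 3 members in that line, -0.29, -0.30 and -0.28, did not pass. The part of a regional shift in them was not tested.

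The rest of the pathway, listed by function, was counted in the same way, and the percentages of all genes given above serve as its background. Of 16 other polymerase I factors, 9 fell and 2 rose in IM-9, 4 fell and 0 rose in KMS-11, 4 fell and 0 rose in RPMI8226, and 1 fell and 1 rose in U266. POLR1E, a subunit of the polymerase, changed by -0.53 ± 0.07 in KMS-11 and -0.45 ± 0.07 in IM-9, and POLR1G by -0.43 and -0.25 in the same lines. POLR1D, shared with polymerase III, fell in RPMI8226 (-0.40 ± 0.09) and IM-9 (-0.66 ± 0.09).

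Of 43 other small subunit factors, 17 fell and 3 rose in IM-9, 12 fell and 0 rose in KMS-11, 6 fell and 2 rose in RPMI8226, and 2 fell and 0 rose in U266. LTV1, which acts in late 40S maturation, changed by -0.38, -0.31 and -0.26 in RPMI8226, KMS-11 and IM-9. The U3 snoRNP gene IMP4 (-0.20, -0.33 and -0.49) and the processome gene TBL3 (-0.23, -0.29 and -0.49) fell in the same 3 lines.

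Of 43 other large subunit factors, 21 fell and 4 rose in IM-9, 8 fell and 0 rose in KMS-11, 5 fell and 3 rose in RPMI8226, and 3 fell and 2 rose in U266. EIF6, which keeps the 60S subunit from joining the 40S, fell in RPMI8226 (-0.69 ± 0.06), KMS-11 (-0.28) and IM-9 (-0.60). PAK1IP1 fell in RPMI8226 (-0.54), U266 (-0.23) and IM-9 (-0.46). Of 12 exosome genes, 5 fell in IM-9, 3 in KMS-11, 2 in RPMI8226 and 0 in U266, 1 rose in each of RPMI8226 and U266, and EXOSC8 changed by -0.29, -0.43 and -0.43 in IM-9, KMS-11 and RPMI8226. Of 8 further proteins of RNase MRP and RNase P, 1 fell in each of RPMI8226, KMS-11 and IM-9, and 1 rose in IM-9.

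The genes of the ribosomal proteins themselves ran differently. Of 58 tested, 25 rose and 2 fell in RPMI8226-HR, 0 rose and 0 fell in KMS-11-HR and U266-HR, and 2 rose and 13 fell in IM-9-HR, with medians of 0.18, -0.06, -0.01 and -0.07. These genes have many near-identical pseudogenes, so their values may contain signal of copies. RPL28 rose in RPMI8226 (0.24 ± 0.06) and IM-9 (0.17 ± 0.06).

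Among 8 genes of the cell cycle, 5 fell in RPMI8226, 4 in KMS-11 and 5 in IM-9 with 0 rising, whereas in U266 4 rose and 0 fell. The replication gene MCM2 changed by -0.64, -0.31 and -0.24 in the first 3 lines and by 0.47 in U266. The part of a change in proliferation in the members' differences was not tested.

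MYC is the transcription factor for which many of these genes are known targets. It read 10.77 and 10.77 in parental IM-9 and 10.00 and 10.01 in IM-9-HR, and 6.67 and 6.71 in parental U266 against 7.19 and 7.28 in U266-HR. Thus it fell by 0.77 ± 0.06 in IM-9 (limma, adjusted p = 9.03e-07) and rose by 0.55 ± 0.06 in U266 (adjusted p = 2.51e-05). In KMS-11 it read 11.49 and 11.45 against 11.48 and 11.43, and in RPMI8226 11.58 and 11.61 against 11.41 and 11.51, with differences of -0.01 and -0.13 that did not pass. The mean of the 36 members went from 9.42 and 9.47 to 9.10 and 9.11 in IM-9 and from 9.49 and 9.50 to 9.24 and 9.28 in KMS-11. It went from 9.39 and 9.40 to 9.36 and 9.31 in RPMI8226, and from 9.02 and 8.97 to 8.98 and 8.95 in U266. The mean of the members was lower in KMS-11-HR, where MYC differed by -0.01, and not higher in U266-HR, where MYC rose. MYC read 6.67 to 7.28 in U266, not far above the filter level of 6.27, and 10.00 to 11.61 in the other lines. Its rise in U266 thus compares low values. The part of MYC in the members' differences was not tested.

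**Figure D4:**
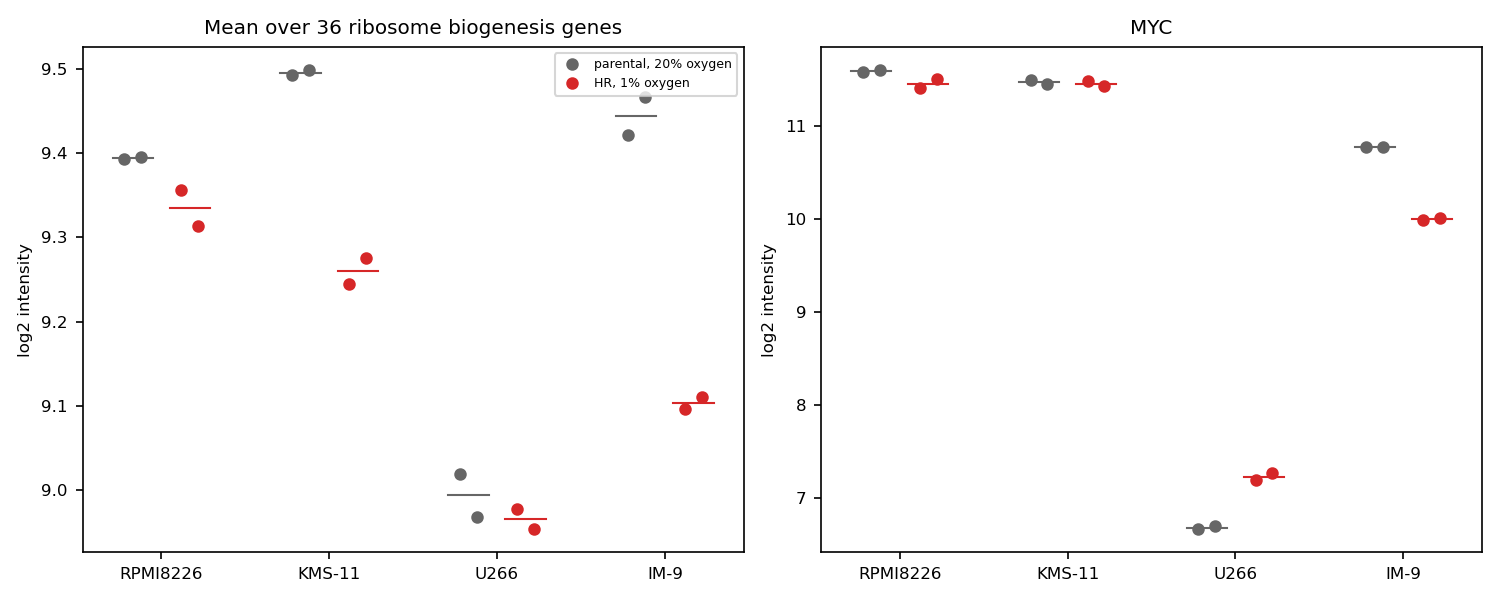
Log2 intensity (y axis, not from 0) on each of the 16 arrays (points), by line (x axis), of the mean over the 36 ribosome biogenesis genes (left) and of MYC (right), with group means as lines; grey is parental at 20% oxygen and red is HR at 1% oxygen. Both panels go down in IM-9 and, by less, in RPMI8226. In KMS-11 the left panel goes down and the right hardly changes. In U266, where MYC is lowest at 6.67 to 7.28, the right panel goes up.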

How the data were processed

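The 16 arrays were grouped by line and condition from their labels. The deposited table holds log2 intensities per probe set, a scale read from the values; Affymetrix Expression Console 1.3.0 stands in the submitters' processing notes, and the normalization is not given in the sources used here. Symbols came from the platform table of the Human Gene 1.0 ST array, which the probe set identifiers matched, although the series' design text speaks of the 2.0 ST version. Of 33297 probe sets, 19460 had 1 symbol, 1754 several and 12083 none there, and 19429 matched RefSeq (GRCh38.p14).

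Genes above 6.27, the median of all values, in at least 2 arrays were tested with limma 3.58.1 in R 4.3.3 (lmFit and eBayes, 2-sided), checked on simulated data, with Benjamini-Hochberg adjustment over 12639 genes and a threshold of 0.05. Within lines, 8 groups shared 1 spread. Across lines, the fit used 8 means (line by condition), blocked by line. Errors are SEs of these fits. The number of arrays limits the precision.

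Members and lists were chosen with earlier results of these data known. Named in full were the members with the smallest p (up to 6 per line, 4 across lines and 6 in the F test), those called in 3 lines, and the 4 with the widest parental range; of each other list, up to 3 genes called one way in the most lines. Promoter windows were held for 31 of the 40 listed genes.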

Additional observations from a re-analysis of the deposited data

Results flagged for a closer look

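For 21 of the 36 members the difference between HR and parental cells was itself different between the 4 lines, by the F test in limma, where 45.4% of all genes passed. Among genes of RNA polymerase I transcription the adjusted p-values were 5.27e-05 for TCOF1, 0.00028 for POLR1B and 0.0293 for MYBBP1A. Among snoRNP genes they were 0.00191 for FBL, 0.00229 for NOLC1 and 0.00641 for DKC1, whose sign in U266 was the opposite of that in the other lines. In the small subunit group they were 0.000174 for NOB1, 0.00524 for UTP20, 0.0083 for RRP12, 0.00968 for WDR75, 0.012 for UTP15, 0.0193 for RRP9, 0.0263 for DDX10 and 0.0383 for BYSL. In the large subunit group they were 0.000376 for RRP1B, 0.00638 for WDR12, 0.00716 for NOP2, 0.00786 for BOP1 and 0.0212 for NOP16. Those of NPM3 and DDX21 were 0.00567 and 0.0118. Each rests on 2 arrays per group.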

How the results depend on the processing

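No difference that passed the threshold, in the reported fit or under an alternative, changed sign. Signs of small differences that did not pass were less stable: members below 0 across lines (35) numbered 33 with centred arrays, and 33 to 35 with 1 array left out. Members called lower in IM-9 (26) stayed between 19 and 28 under every alternative run for them; the counts that moved by over 1.5 times follow, and their causes were not tested. In RPMI8226, members called lower (2) became 5 with a filter in all 16 arrays, 4 with renewed quantile normalization, 5 with trend and robust eBayes, 4 with a replicate block and 1 with the line's arrays alone; members called higher (0) became 1, 1 and 2 under the first 3 of these and 2 with arrays centred on their median. In KMS-11, members lower (11) became 20 with trend and robust eBayes and 22 with array weights, which gave 2083 called genes in place of 1045. In U266, members lower (0) became 1 with the strict filter, centring, the mean of a gene's probe sets, the replicate block and the line alone, and 3 with trend and robust eBayes or array weights; the 1 member higher became 0 with the mean of probe sets and the line alone. Genes called in IM-9 (4506) became 2843 with the line alone. Across lines, genes called (0) became 7 with the strict filter, 176 with the replicate block, 1 without RPMI8226 and 88 with a random block. Members lower (0) became 2 with the replicate block, POP1 (limma adjusted p = 0.0124) and RRS1 (adjusted p = 0.0363). That block fits single arrays and counts the 2 array pairs of a line as independent, so the line is not its unit. Members whose effect differed between lines (21) became 12 without IM-9, in a fit with fewer arrays and lines. The share of all genes in that fit is not given here, so the lower count is not read as a result about the members.

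Leaving out 1 array at a time gave 2418 to 3508 called genes in RPMI8226 with 2 to 4 members lower and 0 to 3 higher, 348 to 1208 in KMS-11 with 3 to 13 lower, 1425 to 2530 in U266 with 0 to 1 lower and 0 to 1 higher, and 3134 to 4623 in IM-9 with 19 to 26 lower. Effects differed between lines for 17 to 22 members then, and parental levels for 35 to 36. The labels do not say whether the array numbers pair the samples, and this was not tested. Deviations of same-numbered HR and parental arrays correlated at 0.109, -0.048, 0.071 and 0.205 in IM-9, U266, KMS-11 and RPMI8226. No value for cultures known to be paired was at hand to set beside these. The table holds no detection calls, so signal over background was not judged.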

Other observations

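Of the 12 tested genes of MYC and its partners, which are not members, 2 rose and 4 fell in IM-9-HR. In KMS-11-HR 2 rose and 1 fell, in U266-HR 2 rose and 0 fell, and in RPMI8226-HR 0 rose and 1 fell. Of all tested genes, 14.4% were called higher and 21.3% lower in IM-9, and 2.44% and 5.83% in KMS-11. These shares were 9.68% and 8.42% in U266, and 10.7% and 15.3% in RPMI8226. The counts include MYC itself, given above, which fell in IM-9 and rose in U266. MXI1, MXD1, MXD4, MYCN, MNT, MAX and MLX are given here. MXI1, which encodes an antagonist of MYC that shares its partner MAX, rose in KMS-11-HR (0.76 ± 0.09, limma adjusted p = 0.00035) and U266-HR (0.82 ± 0.09, adjusted p = 2.93e-05), with -0.04 and 0.08 in RPMI8226 and IM-9. MXD1, another antagonist, rose in IM-9-HR (0.47 ± 0.07, adjusted p = 0.000243) and in KMS-11-HR (0.25 ± 0.07, adjusted p = 0.0496). MYCN, a relative of MYC, fell in RPMI8226-HR (-1.33 ± 0.12, adjusted p = 4.68e-06) and in IM-9-HR (-0.35 ± 0.12, adjusted p = 0.0382). In IM-9-HR the antagonist gene MXD4 rose too (0.58 ± 0.09, adjusted p = 0.000257). The antagonist gene MNT fell there (-0.25 ± 0.08, limma adjusted p = 0.0186), as did MAX (-0.22 ± 0.07, adjusted p = 0.0207). MLX was the gene that fell in KMS-11-HR (-0.34 ± 0.06, limma adjusted p = 0.005). These genes were chosen after their values were seen.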
